A study of Mus musculus with 112 samples.

Results

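Conjugating and hydrolysing detoxification enzymes were followed through the stem cells, progenitors and Paneth cells of the small intestine of young and aged mice. The members were all protein-coding rows of the deposited counts table whose symbol named a glutathione transferase (Gst, Mgst), a UDP-glucuronosyltransferase (Ugt1 to Ugt3), a sulfotransferase (Sult), a carboxylesterase (Ces) or an epoxide hydrolase (Ephx), with a mean of at least 1 count per M (CPM) over animals in at least 1 of the cell types. Of 90 such rows among 32285 listed genes, 50 met the floor, 23 had no count and 17 stayed below it. The members were 20 of 22 Gst genes, all 3 Mgst genes, 7 of 21 Ugt genes, 6 of 21 Sult genes, 12 of 19 Ces genes and 2 of 4 Ephx genes. Most of the genes without a count were Sult (13) and Ugt (8) genes, families with many liver and olfactory members. Just inside the floor lay Gsto2, with a highest mean of 1.11 CPM in stem cells, and just outside it lay Ces2h at 0.78 CPM in progenitors and Ugt1a6a at 0.70 CPM in Paneth cells. Because these levels chose the members, the comparison of cell types is a description and carries no test.

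These enzymes carry out the second phase of detoxification and the hydrolysis that often precedes it. Glutathione transferases join reactive electrophiles to glutathione, glucuronosyltransferases and sulfotransferases attach a sugar acid or a sulfate that makes a compound soluble, carboxylesterases cleave esters and amides of drugs and dietary lipids, and epoxide hydrolases open reactive epoxides to diols. In the intestine they act in the epithelium on what is absorbed, and many of them are known from mature enterocytes of the villus.

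All mice were C57BL/6 carrying Lgr5-eGFP-IRES-CreERT2, an insertion that drives GFP from the stem cell gene Lgr5. Young animals were 2 to 3 months old and aged animals 23 to 27 months. Cells of the proximal small intestine were sorted as living cells negative for 7-AAD. Intestinal stem cells (ISCs) were high for GFP and Epcam and low for CD24, progenitors had medium or low GFP with high Epcam and low CD24, and Paneth cells were high for CD24 and side scatter, GFP negative and Epcam positive. The ISC groups were 5 young males, 6 young females, 7 aged males and 5 aged females. Progenitors came from 5 animals of each age and sex, and Paneth cells from 6 young males, 6 young females, 7 aged males and 5 aged females. The 3' ends of transcripts had been counted, and 69 of the 112 libraries were technical repeats of Paneth samples, summed here per animal to give 67 samples.

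Per animal, ISCs held 2.18 to 5.59 M counts, progenitors 2.48 to 7.57 M, and Paneth samples between 2.82 and 11.8 M. Transcripts of the mitochondrial genome took 56.6 ± 10.2% (SD, n = 24) of Paneth counts, so levels below are CPM after TMM scaling of all 67 samples to a common scale and differ from the unscaled CPM of the floor. Marker sums of ISCs and of Paneth cells were each highest in the cells so labelled. No markers of progenitors were listed, so that label was not checked in this way. ISC markers had medians of 9075 CPM in young and 10096 in aged ISCs, against 1378 and 1299 in progenitors and 2679 and 3040 in Paneth cells. The GFP-negative Paneth gate thus had a higher median of these markers than the progenitor gate. Most of the ISC sum was Olfm4, with a mean of 7578 CPM in young ISCs. Paneth markers stood at 101492 and 150930 CPM in Paneth cells and at most 1685 in any progenitor sample. The progenitor gate also held goblet markers at medians of 19993 and 19328 CPM, and the Paneth gate held goblet markers (6027 and 6873), tuft markers (546 and 420) and enteroendocrine markers (903 and 1963). In sorted bulk samples, fewer cells of a type and less RNA per cell cannot be told apart. Replicates were separate animals, so p-values measure the spread between animals. The descriptions of 16 ISC and 3 progenitor samples end in a number and those of the other 7 ISC and 17 progenitor samples do not, and the labels do not say what it means. Of the numbered ISC samples 6 were young and 10 aged, and of the unnumbered 5 and 2; the 3 numbered progenitor samples were all aged males, and were the ones labelled 26 or 27 months. With the number as a term beside age and sex, 4.71% of tested genes differed with it in ISCs and 0.11% in progenitors at an edgeR adjusted p below 0.05.

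Progenitors had the highest summed level of these enzymes. The summed level of the 50 members had a median of 2423 CPM in ISCs (lowest 2014, highest 2935), 4023 in progenitors (3064 to 4974) and 2510 in Paneth cells (1854 to 3868). The highest mean was found in progenitors for 32 members, in Paneth cells for 10 and in ISCs for 8. By family, progenitors came out on top for 11 of 20 Gst, 3 of 3 Mgst, 6 of 7 Ugt, 3 of 6 Sult, 8 of 12 Ces and 1 of 2 Ephx members. The most frequent order, seen in 25 members, was progenitors, then Paneth cells, then ISCs. No member's top group was free of overlap with the next, so each place in these orders rests on means of overlapping samples. A total of 44 members reached the floor in ISCs, 48 in progenitors, 43 in Paneth cells and 39 in all 3.

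**Figure D1:**
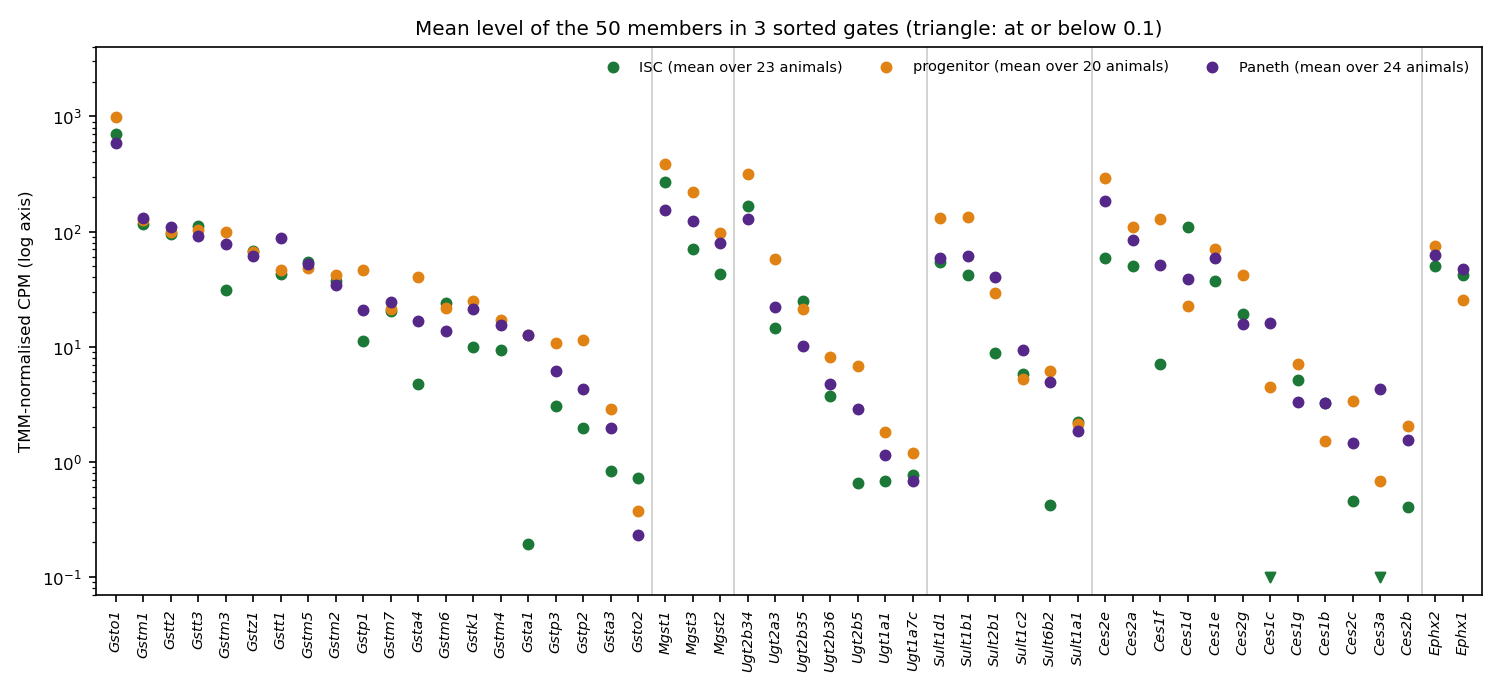
Mean TMM-normalised CPM (vertical log axis) of the 50 members (horizontal axis, grouped by family) in ISCs, progenitors and Paneth cells; each point is a mean over the animals of that cell type. Progenitors are highest for 32 members, and the 2 triangles mark Ces1c and Ces3a, with no count in any ISC sample.

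The levels that chose the members also enter the counts that follow, so these are a description and nothing is read from them. Of 49 members passing the count filter, 32 had an edgeR adjusted p below 0.05 and a higher level in progenitors than in ISCs (20.1% of all 13287 tested genes), 3 a lower level (18.4%) and 14 did not pass. The median log2 difference was 1.13 over these members and -0.04 over all genes. Most ISC but few progenitor samples have a number in the description, so this comparison carries that imbalance. With the number as a term, chosen after seeing the data, 29 members were called, where 3298 of 13287 genes were. Of these members, 27 were higher and 2 lower in progenitors. Between Paneth cells and ISCs, 22 were higher (22.9% of all genes), 7 lower (20.3%) and 20 did not pass, with a member median of 0.61. Between Paneth cells and progenitors, 6 were higher (21.1%) and 25 lower (18.9%), with a member median of -0.51. Gsto2 was too low to be fitted. Enterocyte markers went the same way as most members in both comparisons with ISCs. Of 12, 11 were higher in progenitors than in ISCs (median log2 3.83) and 11 higher in Paneth cells than in ISCs (4.42). None was lower in either comparison. Their summed level had medians of 1031 and 1038 CPM in young and aged ISCs, 2302 and 2451 in progenitors, and 2837 and 2593 in Paneth cells (all 12 had a mean of at least 1 CPM in the latter 2). Between Paneth cells and progenitors this sum did not follow the members. Its median was higher in Paneth cells at both ages, with overlapping ranges, while most members were lower there. All 7 goblet markers were higher in Paneth cells than in ISCs. The goblet sum had medians of 647 and 723 CPM in young and aged ISCs. It had 19993 and 19328 in progenitors, and 6027 and 6873 in Paneth cells. Its medians thus had the most frequent order of the members, with progenitors first and ISCs last. The part of these cells in the enzyme levels was not tested. The mitochondrial share moved with the Paneth comparisons: with no scaling beyond library totals the median of all genes was -1.75 against ISCs and -1.57 against progenitors, and the members split 6 higher to 33 lower and 0 to 46. Directions involving Paneth cells are therefore relative to the typical gene. Without scaling, Mgst2, Mgst3, Ugt2a3, Ces2a, Ces2e and Sult1b1 turned lower in Paneth cells than in ISCs, and Ces1d, Sult2b1 and Ephx1 lower than in progenitors.

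Among the glutathione transferases, Gsto1, an omega-class enzyme that reduces oxidised thiols, had 529 CPM in its lowest ISC sample, a median of 695 and 896 in its highest. In progenitors it ranged from 812 over 988 to 1297 CPM, and in Paneth cells from 426 over 543 to 920. The ranges overlapped at every step, with log2 differences of 0.50 for progenitors against ISCs and -0.79 for Paneth cells against progenitors. With the animal as a block these were 0.36 and -0.73. Numbered ISC samples differed from unnumbered ones by a log2 of -0.35 for this gene. The mu-class gene Gstm1 (medians 114, 128 and 128 CPM in ISCs, progenitors and Paneth cells) and the theta-class genes Gstt2 (means 96.0, 99.0 and 109) and Gstt3 (111, 103 and 91) lay close together in all cell types. Gsta4, an alpha-class enzyme for lipid aldehydes such as hydroxynonenal, was wider apart: its means were 4.76, 40.7 and 16.7 CPM. Gsta1 was near absent from ISCs at 0.19 CPM and had 12.7 in progenitors and 12.6 in Paneth cells.

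The 3 membrane-bound transferases shared a maximum in progenitors. Mgst1, an enzyme of the endoplasmic reticulum and outer mitochondrial membrane, had 202, 265 and 373 CPM as lowest, median and highest ISC value, 290, 379 and 509 in progenitors, and 51.1, 148 and 268 in Paneth cells. Every Paneth sample was below every progenitor sample, a pattern that 0.226% of all tested genes showed in that direction. Mgst3 had means of 70.8, 219 and 123 CPM and Mgst2, which also makes leukotriene C4, 42.7, 97.3 and 79.8.

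Of the glucuronosyltransferases, Ugt2b34 had medians of 165 CPM in ISCs (91 to 228), 311 in progenitors (175 to 418) and 124 in Paneth cells (48.8 to 209). Ugt2a3, an enzyme of bile acid and drug glucuronidation, had 13.8 CPM in ISCs (2.91 to 29.6), 57.4 in progenitors (37.3 to 89.7) and 19 in Paneth cells (3.26 to 49.5). Its lowest progenitor sample stood above the highest ISC sample (log2 difference 2.03). Ugt2b35 went the other way, with means of 24.7, 21.1 and 10.2 CPM, and Ugt2b36 stayed low at 3.7, 8.15 and 4.73.

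Sulfotransferases showed the same lead of progenitors for Sult1b1, which sulfates phenols and thyroid hormone (means 41.6, 133 and 61.6 CPM), and Sult1d1, a catecholamine sulfotransferase (54.6, 131 and 58.7). Sult2b1, which sulfates cholesterol, was instead highest in Paneth cells (not so without scaling) at 40.4 CPM, against 8.78 in ISCs and 29.2 in progenitors. Sult1c2 stayed below 10 CPM on average in all of them (5.81, 5.24 and 9.44).

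Carboxylesterases ranged widely between cell types. Ces1f had 0.39 CPM in its lowest ISC sample, a median of 5.72 and a highest value of 24.4, whereas progenitors ranged from 46.4 over 113 to 215 and Paneth cells from 18.7 over 51.6 to 93.6. ISC and progenitor samples were apart, with a log2 difference of 4.22 ± 0.24 (estimate ± SE). Ces2e, of the intestinal Ces2 class, had medians of 63.2 CPM in ISCs (27.6 to 86.7), 281 in progenitors (139 to 446) and 165 in Paneth cells (85.4 to 402), and Ces2a had means of 49.9, 110 and 84.3. Ces1d, a triacylglycerol hydrolase, ran against the family: 63.3, 109 and 175 CPM in ISCs, 9.82, 15.9 and 59.8 in progenitors, and 3.65, 34 and 107 in Paneth cells. All ISC values lay above all progenitor values (log2 difference -2.32 ± 0.22). Ces1c and Ces3a had no count in any of the 23 ISC samples. With a floor of 3 counts over the whole group, Ces1c was at least 220-fold higher in progenitors and at least 784-fold higher in Paneth cells, and Ces3a at least 33-fold and 209-fold higher.

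In all, 9 members had every progenitor sample above every ISC sample (Ces1c, Ces1f, Ces2e, Gsta1, Gsta4, Gstm3, Sult1b1, Sult1d1 and Ugt2a3), which 2.39% of all tested genes did. Ces1c and Gsta1 met the floor for membership only outside ISCs, so the rule itself sets part of this count and nothing is read from it. Ces1d was the single member with the reverse pattern (0.73% of genes). None was free of overlap between Paneth cells and ISCs (1.29% of genes were with Paneth cells higher and 0.105% with them lower). The cytosolic lipid epoxide hydrolase Ephx2 had means of 50.1, 75.4 and 62.1 CPM, and the microsomal enzyme Ephx1, which opens epoxides of aromatic compounds and drugs, was lowest in progenitors when scaled (41.8, 25.6 and 47.2).

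With age, 3 enzymes rose in progenitors: the esterase Ces1f, the mu-class transferase Gstm6 and the glucuronosyltransferase Ugt2a3. They were the members called among the 47 that passed the count filter (Gsto2, Ces3a and Ugt1a7c did not), or 6.38%, where 0.728% of all 11812 tested genes were called in either direction and 0.466% were called higher. No member was called lower. In ISCs and Paneth cells no member passed. These calls came from edgeR's quasi-likelihood test, adjusted by the Benjamini-Hochberg method over all genes.

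Ces1f (chromosome 8, 93256236 to 93279747, minus strand, GRCm38) had 46.4 CPM in its lowest young progenitor sample, a median of 102 and a highest value of 131, against 97, 169 and 215 in aged samples. Aged samples were mostly above the young ones, with an overlap between 97 and 131 CPM. The log2 change was 0.78 ± 0.14 (edgeR adjusted p = 0.00199, n = 10 and 10). In ISCs, where the gene was scarce, medians were 5.55 and 6.74 CPM (log2 0.78 ± 0.40, edgeR adjusted p = 0.594), and in Paneth cells 59 and 45.9 CPM (-0.17 ± 0.26, edgeR adjusted p = 0.954). None of its last 400 transcript bases shared a 50-base stretch with another gene, so its 3' counts can be told apart from those of its neighbours.

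Gstm6 (chromosome 3, 107938847 to 107943749, minus strand) had 9.45, 15.4 and 20.9 CPM as lowest, median and highest value in young progenitors and 17.1, 29.2 and 35.4 in aged ones. A single aged male at 17.1 CPM lay among the young samples, and the other 9 aged animals were at or above 21.9 (counts of 47 to 303 per sample over both ages). The log2 change was 0.88 ± 0.16 (edgeR adjusted p = 0.00302). ISCs showed no such shift, with medians of 24.4 and 20.4 CPM (0.05 ± 0.22, edgeR adjusted p = 0.982). In Paneth cells the medians were 5.73 and 21 CPM (1.17 ± 0.40), which did not pass (edgeR adjusted p = 0.422). Of its 3' stretches, 31.1% occur in another gene as well, most often in Gstm3, so part of its signal is uncertain.

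Ugt2a3 (chromosome 5, 87324972 to 87337195, minus strand) had 37.3, 43.1 and 63.6 CPM in young progenitors and 45.7, 66.6 and 89.7 in aged ones. The groups overlapped between 45.7 and 63.6 CPM. Its log2 change of 0.52 ± 0.13 was just past the threshold (edgeR adjusted p = 0.0464) and was lost in 15 of 20 fits that left out 1 animal each (highest edgeR adjusted p = 0.116). Ces1f and Gstm6 kept their calls in all 20 (highest 0.0071 and 0.0086). Without the aged animals of 26 and 27 months, which are also the 3 numbered progenitor samples, Ces1f was the call that remained (0.77, edgeR adjusted p = 0.00863), with Gstm6 at 0.77 (adjusted p = 0.0722) and Ugt2a3 at 0.45 (adjusted p = 0.385).

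The regions just upstream of the start sites of these called members are shown because their genes rose in the same cells. They are the 250 bases before the start in RefSeq on GRCm38.p6, read 5′ to 3′ on the gene's strand. That table held 43 of the 50 members and not Ces1f. Capitals mark GTTAAT, the core of a site for the intestinal factor HNF1. For Ugt2a3 the window is chr5:87337196-87337445, minus strand, and it holds the core in 2 copies. For Gstm6, the second of 3 listed windows is chr3:107943735-107943984, minus strand, and holds no match.
Ugt2a3: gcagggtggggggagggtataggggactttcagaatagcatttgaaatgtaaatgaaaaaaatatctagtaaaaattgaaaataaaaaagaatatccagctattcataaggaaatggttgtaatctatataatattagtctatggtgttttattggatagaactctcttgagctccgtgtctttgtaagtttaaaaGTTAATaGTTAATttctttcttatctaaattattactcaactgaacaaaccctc
Gstm6: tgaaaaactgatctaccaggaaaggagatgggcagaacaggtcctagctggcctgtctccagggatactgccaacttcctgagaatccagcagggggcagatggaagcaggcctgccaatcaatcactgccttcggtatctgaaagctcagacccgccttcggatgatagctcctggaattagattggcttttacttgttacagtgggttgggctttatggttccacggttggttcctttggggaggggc
The rates that follow are for windows that also held the 50 bases after the start. On either strand, GTTAAT occurred in 9.09% of the 55 member windows and in 7.1% of all 32851 windows. The antioxidant response letters TGACNNNGC occurred in 7.27% and 12.4%, the Ah receptor core GCGTG in 20% and 32.4%, and the nuclear receptor letters AGGTCA in 14.5% and 16.3%. These letters were chosen after expression values were seen, and a match is no evidence of binding.

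The other members leaned the same way in progenitors without passing. The log2 change was above 0 in 39 of the 47 members (83%), against 50.9% of all genes, with medians of 0.33 and 0.0043. At an unadjusted p below 0.05 stood 19 members (40.4%), all of them positive, against 9.06% of genes. All 11 Ces members measured were above 0 (median 0.52), as were 15 of 19 Gst, 3 of 3 Mgst, 5 of 6 Sult, 4 of 6 Ugt and 1 of 2 Ephx members. The lowest were Gsta3 at -0.70 and Gstp1 at -0.38 (0.15 with the description number as a term). Members of a family can share regulators and reads, so these counts are a description. The summed Ces level had a median of 622 CPM in young progenitors (324 to 686) and 815 in aged ones (549 to 979), and that of all 50 members 3865 (3064 to 4123) and 4451 (3706 to 4974).

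Closest to the threshold were Ces2e, Gstt1 and Ces1e. Ces2e went from 139, 256 and 293 CPM (lowest, median and highest young value) to 250, 330 and 446 (log2 0.48 ± 0.12, edgeR adjusted p = 0.06). Gstt1, a theta-class enzyme acting on small halogenated compounds, went from 22.2, 36.3 and 55.9 to 30.8, 57.3 and 70.2 CPM (0.62 ± 0.16, edgeR adjusted p = 0.0642). Ces1e had 35.4, 64 and 74.5 CPM in young and 59.2, 80.5 and 132 in aged progenitors (0.47 ± 0.13, edgeR adjusted p = 0.104). For each of these the upper young and lower aged samples overlapped. DESeq2 called Ces2e and Gstt1 as well (adjusted p = 0.0412 and 0.0387). No member had its age groups free of overlap in any cell type (0.0677% of genes did in progenitors, 0.0585% in ISCs and 0.00857% in Paneth cells).

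**Figure D2:**
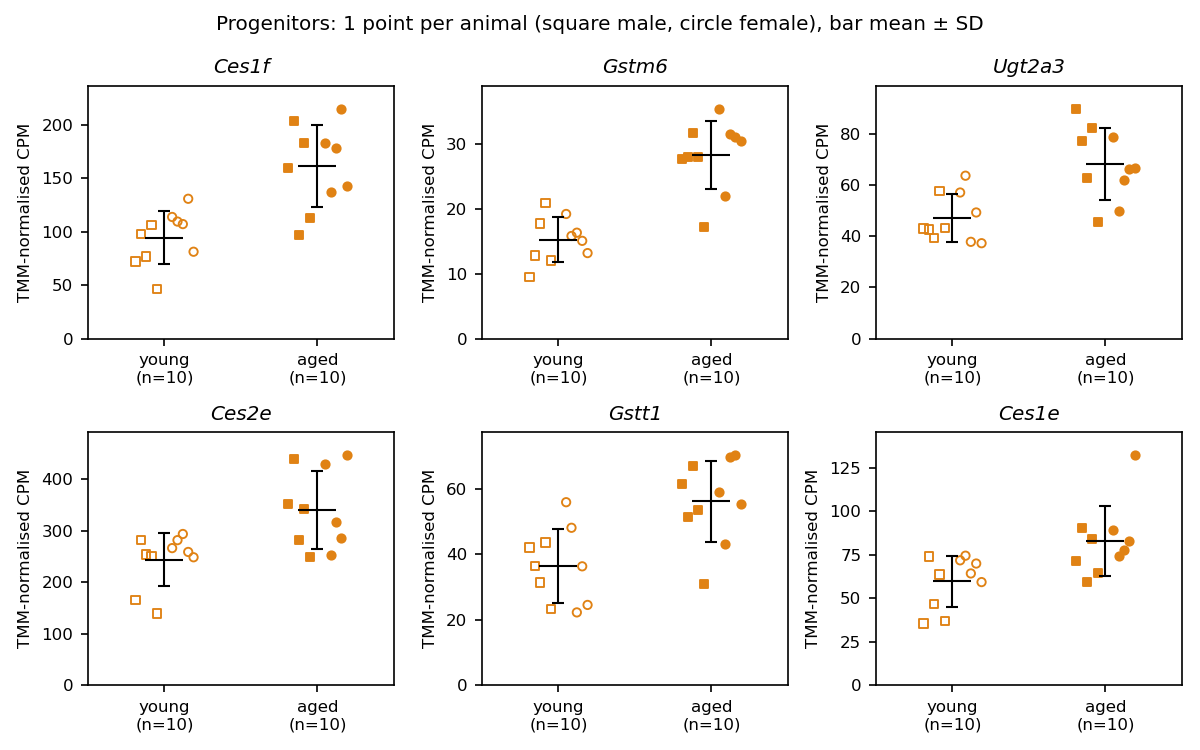
TMM-normalised CPM (vertical axis, linear from 0) in progenitors of 10 young and 10 aged animals for the 6 members with the smallest p; each point is an animal (square male, circle female) and the bars give mean ± SD. The aged mean is the higher in every panel and all panels show overlapping points.

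Marker sums of other cells also differed with age in the progenitor gate. The enteroendocrine marker sum had a median of 202 CPM in young (77.1 to 298) and 508 in aged samples (234 to 1009), and 2 of its 8 markers, Sct and Tac1, were called. The stromal sum had medians of 10.7 and 23.5 CPM, with 6 of 7 markers below 1 CPM on average. The enterocyte sum had medians of 2302 (1690 to 2545) and 2451 CPM (1799 to 3336), and none of its 12 markers was called. The Paneth sum had medians of 843 (626 to 1203) and 1084 CPM (187 to 1685), and none of its 6 markers was called. The goblet sum (19993 and 19328) and the ISC sum (1378 and 1299) differed less. The part of these cells in the enzyme levels was not tested.

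In ISCs, 0 of 39 tested members were called, where 0.351% of all genes were. DESeq2 called 1, and 8 members (20.5%, against 8.9% of genes) had an unadjusted p below 0.05. Nearest was Gsta4, with 0.203, 1.78 and 6.24 CPM in young and 1.72, 6.27 and 14.5 CPM in aged ISCs (log2 1.66 ± 0.43, edgeR adjusted p = 0.0777). Most aged values exceeded the young median, but the ranges overlapped from 1.72 to 6.24. The DESeq2 call was this gene (1.67, adjusted p = 0.0108). Mgst3 had 34.7, 50.6 and 102 CPM in young and 55, 80.2 and 125 in aged ISCs (0.51 ± 0.15, edgeR adjusted p = 0.157). Next came Ces2g (0.58, edgeR adjusted p = 0.267), Ephx1 (-0.47 ± 0.16, edgeR adjusted p = 0.277), Ugt2b35 (-0.52, edgeR adjusted p = 0.319) and Mgst2 (0.41, edgeR adjusted p = 0.371). Of the 39, 24 were above 0, with a median of 0.06.

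In Paneth cells, 0 of 45 tested members were called by edgeR (0.0686% of genes were) and 0 by DESeq2. At an unadjusted p below 0.05 stood 5 (11.1%, against 6.83% of genes), and 27 were above 0 with a median of 0.09. Ephx1 had 22.4, 32.7 and 75.8 CPM in young and 28, 51.6 and 107 in aged samples (0.70 ± 0.24, edgeR adjusted p = 0.418). Gstm6 had 3.04, 5.73 and 16 CPM against 5.18, 21 and 33.4. Further from the threshold were Ces1c (medians 6.11 and 20.1 CPM, log2 1.44, edgeR adjusted p = 0.45), Sult1c2 (3.52 and 13.8 CPM, 1.68, edgeR adjusted p = 0.486), Gsta3 (1.62 and 0.34 CPM, -2.60, edgeR adjusted p = 0.551) and Gstm7 (16.7 and 30.4 CPM, 0.61, edgeR adjusted p = 0.746). Paneth samples varied most, with a biological coefficient of variation of 0.706 against 0.433 in ISCs and 0.333 in progenitors. Enteroendocrine markers also had a higher median in aged Paneth samples (1963 against 903 CPM), as did stromal markers (38.5 against 13.3). Of the 7 stromal markers, 6 in young and 5 in aged samples were below 1 CPM on average. The Paneth marker sum had a higher median in aged samples too (150930 against 101492 CPM), with overlapping ranges and none of its markers called. The part of these marker differences in the enzyme values was not tested.

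**Figure D3:**
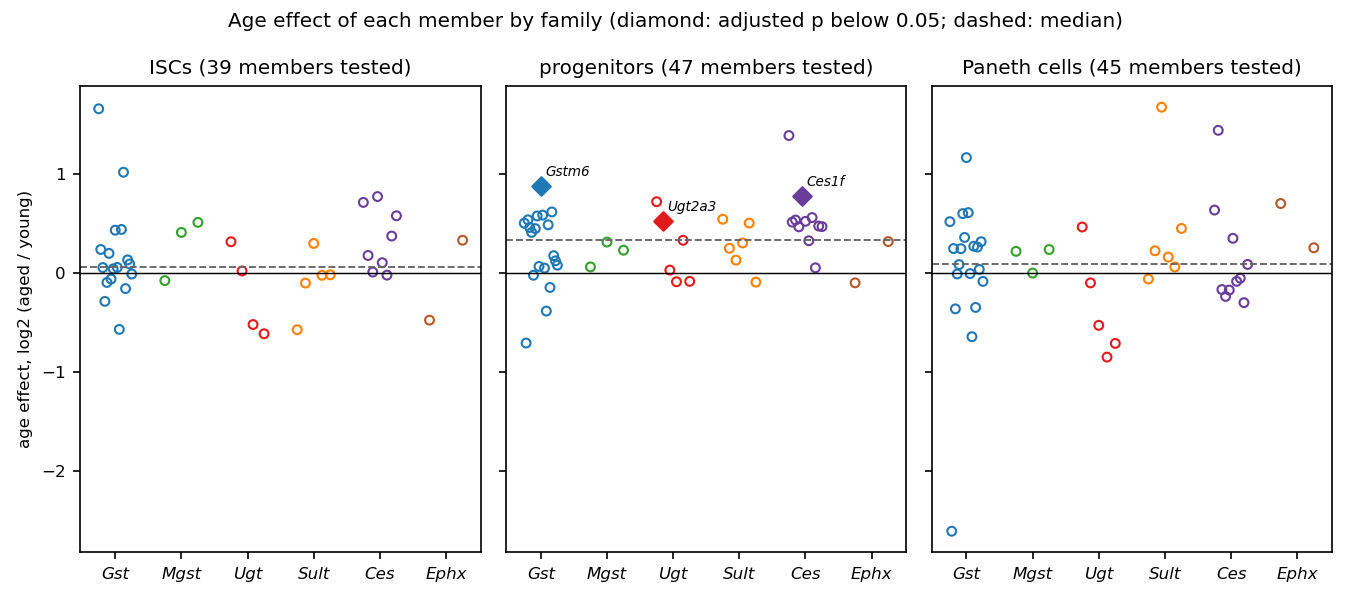
Log2 change with age (vertical axis, aged over young) of every tested member, by family (horizontal axis), in ISCs (39 members), progenitors (47) and Paneth cells (45); each point is a member, filled diamonds mark adjusted p below 0.05 and the dashed line is the median. Called members are found in progenitors, where the median is 0.33.

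Whether age acted differently between cell types was tested directly in the fit of all 67 samples. No member passed. Ephx1 came nearest: its age change was larger in Paneth cells than in ISCs by 1.18 ± 0.27 on the log2 scale (edgeR adjusted p = 0.0733, where 0.0376% of genes were called). Ranges over the ages were 31 to 81.8 CPM in young and 20.7 to 57.6 in aged ISCs, and 22.4 to 75.8 in young and 28 to 107 in aged Paneth cells. Aged ISCs were thus lower at the median and aged Paneth cells higher. The difference passed in DESeq2 (1.19, adjusted p = 0.0112), without scaling (1.45, edgeR adjusted p = 0.0175) and in 5 of 67 fits that left out 1 sample. With the description number as a term, an alternative added after seeing the data, it passed too (1.25, edgeR adjusted p = 0.0369). The main fit took samples of the same animal in different cell types as independent. With the animal as a block, no member passed for this difference. The same held with DESeq2 size factors, no filter, mitochondrial genes removed and the first technical library. Against progenitors the Paneth change in Ephx1 differed by 0.82 (edgeR adjusted p = 0.361; no gene was called). For progenitors against ISCs, Gstm6 had the smallest p (0.82 ± 0.38, edgeR adjusted p = 1; 0.00753% of genes called). The rises of Ces1f, Gstm6 and Ugt2a3 in progenitors are thus not shown to differ from those in the other cells. At an unadjusted p below 0.05 stood 6 of 49 members for Paneth cells against ISCs, 6 against progenitors and 3 for progenitors against ISCs.

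Sex entered every fit, since each age group held males and females. In progenitors Ephx1 was lower in males, with 12.3, 18.3 and 28.3 CPM as lowest, median and highest value, against 21.3, 32.3 and 51.3 in females. The ranges shared 21.3 to 28.3 CPM. The log2 difference was -0.81 ± 0.16 (edgeR adjusted p = 0.022), and it was the single member called among 47 (0.135% of genes). The call was lost in 5 of 20 fits leaving out 1 animal, with the replicate number as a block (edgeR adjusted p = 0.0638) in young animals alone (-0.56, edgeR adjusted p = 1) and with the description number as a term (-0.89, edgeR adjusted p = 0.112), and was held in aged animals alone (-1.05, edgeR adjusted p = 0.0486). In ISCs no member was called (0.0836% of genes). Nearest was Sult1a1, a phenol sulfotransferase, with medians of 0.275 CPM in males and 3.46 in females (log2 -2.36 ± 0.65, edgeR adjusted p = 0.246; DESeq2 -2.40, adjusted p = 0.0366). In Paneth cells none was called (0.0257% of genes), and Gsta1 had the smallest p (1.20 in males over females, edgeR adjusted p = 0.999).

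**Figure D4:**
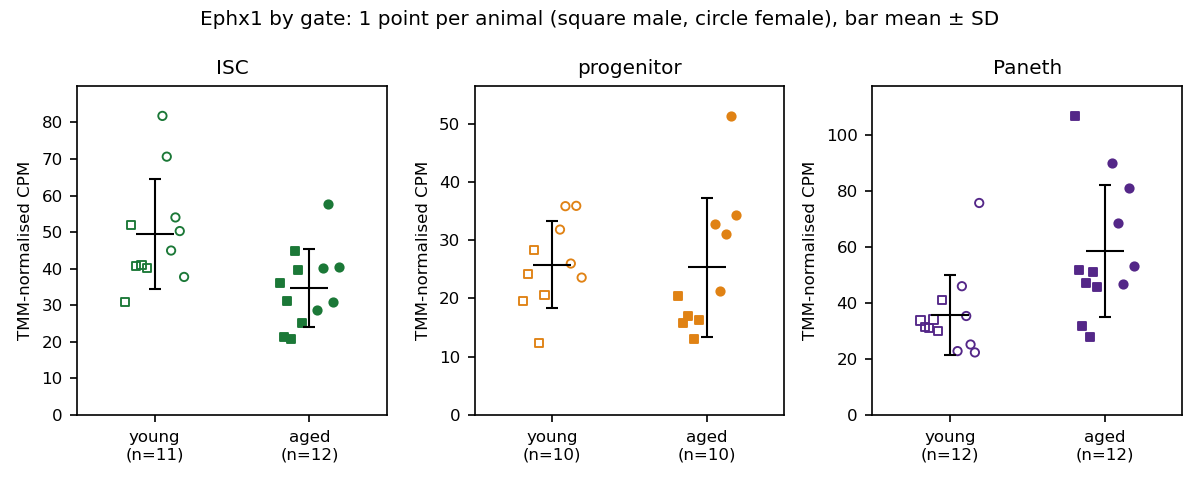
Ephx1 level (TMM-normalised CPM, vertical axes linear from 0 and scaled per panel) in ISCs, progenitors and Paneth cells of young and aged animals; each point is an animal (square male, circle female) and the bars give mean ± SD. Aged samples have a lower median in ISCs (33.7 against 45 CPM) and a higher one in Paneth cells (51.6 against 32.7), and males sit below most females in progenitors.

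The age change of no member differed between males and females at the threshold, and no tested gene was called (0% of genes) in any of these contrasts. The smallest p belonged to Sult1d1 in ISCs (difference 0.91, edgeR adjusted p = 0.563), Mgst1 in progenitors (0.61 ± 0.17, edgeR adjusted p = 0.783) and Ephx2 in Paneth cells (1.02, edgeR adjusted p = 0.885). In progenitors the changes of the called genes had the same sign in both sexes. Ces1f changed by 0.91 in males and 0.65 in females, Gstm6 by 0.85 and 0.91, and Ugt2a3 by 0.65 and 0.39. Within a sex, Ces1f in males alone passed (edgeR adjusted p = 0.0355; 0.178% of genes were called in males and 0.0847% in females).

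Other genes of detoxification were read from lists. Of 34 measured phase I oxidoreductases, which prepare compounds for conjugation, 4 rose with age in progenitors (0.466% of all genes were called higher) and none fell. These were the fatty acid hydroxylase Cyp4f14 (log2 0.57, edgeR adjusted p = 0.00392), the flavin monooxygenase Fmo1 (1.74, edgeR adjusted p = 0.0147), the phenobarbital-inducible Cyp2b10 (2.60, edgeR adjusted p = 0.0251) and Cyp2d26 (0.87, edgeR adjusted p = 0.0398). Without the 3 numbered progenitor samples, Fmo1 was the call that remained (1.83, edgeR adjusted p = 0.0331), and the others had adjusted p of 0.107 to 0.248. The list median was 0.33, the same to 2 decimals as that of the members. In ISCs 2 of 30 rose (0.351% of all genes were called in either direction), the alcohol dehydrogenase Adh1 (0.77, edgeR adjusted p = 0.00492) and Cyp2c65 (0.74, edgeR adjusted p = 0.0118). Both kept the call with the description number as a term and lost it in the numbered ISC samples alone (0.77 and 0.67, edgeR adjusted p = 0.0709 and 0.191).

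The suppliers of these reactions stayed below the threshold with age. None of the genes that make glutathione, UDP-glucuronic acid and sulfate donors was called in ISCs (0 of 13), progenitors (0 of 14) or Paneth cells (0 of 14), with a progenitor median of 0.03. Efflux and uptake transporters (0 of 14 in progenitors, median 0.12), xenobiotic and intestinal transcription regulators (0 of 19, median 0.04) and other hydrolases (0 of 12, median 0.16) had no call in any of the cell types. Between cell types, 10 of 15 cofactor genes were higher in progenitors than in ISCs and none was lower (median 0.57), and 24 of 35 phase I genes were higher (median 1.03), where 20.1% of all genes were.

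Reads of near-identical copies limit some values. Of the 50 members, 29 shared no 50-base stretch of their last 400 transcript bases with another gene and 21 did. More than 50% was shared in Gsta1 (87.2%), Gstp1 (91.2%), Gstp2 (100%), Gstt3 (71.8%), Ugt1a1 (100%) and Ugt1a7c (100%), so their levels are uncertain. Samples of the same animal were not independent across cell types. With the animal as a block, the members called were 31 for progenitors against ISCs, 26 for Paneth cells against ISCs and 25 for Paneth cells against progenitors, in place of 35, 29 and 31.

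Gstp1, a pi-class transferase, was low in the other cells of animals that were low in ISCs, a pattern noticed after values were seen. Of 17 animals sampled in ISCs and another cell type, 10 had 1.56 to 9.19 CPM in ISCs and 1.22 to 11.7 CPM in their other cells. The other 7 had 11.6 to 54.8 CPM in ISCs and 20.1 to 63.2 elsewhere. The lower animals were 3 young and 7 aged, the higher 5 young and 2 aged. Of 20 progenitor samples, 4 had at most 11.7 CPM and the rest at least 39.8. These levels followed the number in the sample description. The 16 numbered ISC samples had 1.56 to 9.19 CPM and the 7 unnumbered 11.6 to 54.8. The 3 numbered progenitor samples had 8.66 to 11.7 CPM, and of the 17 unnumbered, 1 aged female had 10.7 and the rest 39.8 to 91.7. With the number as a term, chosen after seeing the data, numbered samples were lower by a log2 difference of -3.73 ± 0.33 in ISCs (edgeR adjusted p = 8.22e-10) and -3.01 ± 0.40 in progenitors (edgeR adjusted p = 0.000207). Its close relative Gstp2 differed by -4.18 and -2.85 (edgeR adjusted p = 0.00153 and 0.0095). Gsto1 in ISCs was the other member called (-0.35, edgeR adjusted p = 0.0187). What the number stands for and a difference between animals cannot be told apart.

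An aged male Paneth sample whose animal name carries a suffix was counted as another animal. It had 52.3 CPM of Gstp1, while the animal of the same name without the suffix had 4.81 CPM in ISCs and 8.66 in progenitors. Whether they are the same mouse is not known, and if so it does not follow the pattern. The age change of Gstp1 passed in no cell type (log2 -0.57, -0.38 and -0.64 for ISCs, progenitors and Paneth cells, lowest edgeR adjusted p = 0.868), and with the number as a term it was 0.88 in ISCs and 0.15 in progenitors (edgeR adjusted p = 0.195 and 0.973). The log2 excess of progenitors over ISCs was 2.14 without and 0.99 with the animal as a block, and 0.77 in unnumbered samples alone. That of Paneth cells was 0.91 and 0.0010 without and with the block. Since the levels differ with the description number, no correlation between cell types is given.

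**Figure D5:**
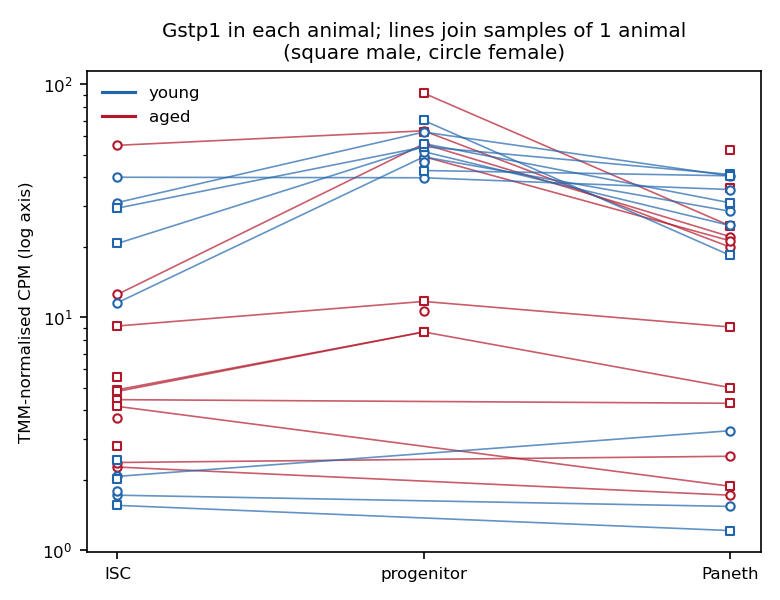
Gstp1 level (TMM-normalised CPM, vertical log axis) in ISCs, progenitors and Paneth cells; each point is a sample (square male, circle female; blue young, red aged) and lines join samples of the same animal name. Apart from 1 aged male Paneth sample at 52.3 CPM, whose name with a suffix was counted as another animal, animals below 10 CPM in ISCs stay at or below 11.7 CPM in their other cells, and those at or above 11.6 are at 20.1 or more elsewhere.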

How the data were processed

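The authors deposited gene counts and CPM for 112 SC3-seq libraries (3' end counting from 1 ng RNA, NextSeq 500, per the labels' protocols). Cutadapt 3.0, STAR 2.7.9a, HTSeq 0.13.5, DESeq2 1.30.1 and mm10 are named per the submitters' processing notes. For the gene annotation and strand setting, the values were not given in the sources used here, so overlapping antisense genes cannot be told apart. Deposited CPM equalled scaled counts within 4.95e-10, and counts were used. Libraries held 1.08 to 7.57 M counts. No gene name was lacking except in 127 rows with 0.00162% of reads, kept under their identifiers.

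Paneth libraries were summed per animal. Age and sex were tested within each cell type by a fit of its 4 age and sex groups, and cell types and differences of age changes in 1 fit of 12 groups (R 4.3.3, edgeR 4.0.16, limma 3.58.1, data.table (1.17.8)). Genes were kept by filterByExpr (minimum count 10), scaled by TMM, and called at a Benjamini-Hochberg adjusted p below 0.05 over all genes. The procedure was tested on simulated data. The simulation used the same spread for every cell type and drew all samples as independent. It therefore does not cover the wider spread of Paneth samples or animals shared between cell types. Alternatives were DESeq2 1.42.0, other scaling, no filter, blocks, subsets of animals, the first technical library, and each sample left out. Fits with the number that ends some ISC and progenitor descriptions as a term, or in numbered or unnumbered samples alone, were added after seeing the data.

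Replicate numbers did not pair samples: residuals of same-numbered samples correlated at medians of 0.0258 (ISCs), -0.0018 (progenitors) and 0.0057 (Paneth cells). Pairing by animal comes from the animal names (medians 0.0859 over 10, 0.0642 over 15 and 0.0623 over 14 pairs). An animal name with a suffix was counted apart, and 1 animal has differing ages in the labels.

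The members, lists and rules were chosen with earlier results of these data known. Named were, for each age change, every called member filled to 6 by p. For cell types, up to 4 per family by mean CPM were named, and elsewhere every called member or that with the smallest p, besides up to 3 genes a list. Other members named for absence of overlap, for Gsta1, Gstp1 or as lowest values were chosen after values were seen, as was Cyp2d26. The list of other conjugating enzymes is not reported here.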

Additional observations from a re-analysis of the deposited data

Results flagged for a closer look

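Each group of 4 to 10 animals was searched for a highest or lowest sample set apart from the rest by more than Dixon's 95% limit for its size. Of 72 groups of the members named with age, 10 held such a sample, and 7 of these were Paneth groups. The limit corresponds to 1 in 20 for independent groups of normally distributed values. CPM were not transformed here and the same animals recur across members, so no excess is read from the count.

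In progenitors, Gstm6 had 17.1 CPM in aged male replicate 5, below the next value of 27.6. Ugt2a3 had 57.6 CPM in young male replicate 4, above 43.1, and Ces1e had 132 CPM in aged female replicate 5, above 89.2. In Paneth cells, Ephx1 had 41.2 CPM in young male replicate 6 (next 34.2) and 107 in aged male replicate 1 (next 51.9). Gstm6 had 16 CPM in young male replicate 6 (next 6.39), and Gstm7 had 38.3 in young female replicate 2 (next 20.5). Ces1c had 91 CPM in aged male replicate 2 (next 34.1), Gsta3 had 3.97 in aged male replicate 6 (next 1.43), and Sult1c2 had 27.7 in young female replicate 6 (next 4.9). Without the aged male at 17.1 CPM of Gstm6, 5 members were called with age in progenitors in place of 3.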

How the results depend on the processing

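Counts of called members stayed within 1.5 times their value under DESeq2 size factors, no filter, removal of mitochondrial genes, the animal block and the first technical library. The age count in progenitors was 3, 5 with DESeq2, 1 without animals of 26 and 27 months, 1 in males alone and 0 in females alone. With DESeq2, 1 member was called with age in ISCs, 1 for sex in ISCs and 1 for the difference of age changes between Paneth cells and ISCs, which was also 1 without scaling. For sex in progenitors the count was 0 in young animals alone. Paneth cells against progenitors gave 16 in young and 20 in aged animals alone, in place of 31. Leaving out each sample in turn gave 0 to 1 called with age in ISCs, 2 to 5 with age and 0 to 1 for sex in progenitors, and 0 to 1 for the difference between Paneth cells and ISCs.

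With the description number as a term, chosen after seeing the data, 1 member was called with age in progenitors, 0 for sex in progenitors and 1 for the difference between Paneth cells and ISCs; the other 9 counts stayed within 1.5 times, as did the 3 in numbered ISC samples alone and the 1 in unnumbered samples alone.

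With the replicate number as a block, which the data do not show to pair samples, 4 members were called with age in progenitors (Gstt1 added, edgeR adjusted p = 0.027) and 0 for sex (Ephx1, adjusted p = 0.0638); the other 7 counts with that block stayed at 0.

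No scaling turned the sign for Paneth cells against ISCs of Mgst3 (-0.89), Mgst2 (-0.78), Ugt2a3 (-1.14), Ces2e (-0.14), Ces2a (-0.99) and Sult1b1 (-1.21), and against progenitors of Ces1d (-0.86), Sult2b1 (-1.14) and Ephx1 (-0.69). All genes shifted there by the medians given above, and 5.24% and 3.79% of all calls were higher. For progenitors against ISCs 38.3% were higher without scaling. With the first technical library, Gstm7 in Paneth cells changed by -0.0063 with age. The cause of the other changes was not tested, except that single sexes, ages and left-out samples mean fewer samples. Depth limits members below a few CPM, such as Ugt1a7c and Gsto2.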
